A study of Homo sapiens with 12 samples.

Results

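The carcinoembryonic antigen-related cell adhesion molecules (CEACAM) were followed here through H3K27ac, the acetylated histone H3 found at promoters and enhancers in use, at 8 members: CEACAM1, CEACAM3, CEACAM4, CEACAM5, CEACAM6, CEACAM7, CEACAM8 and CEACAM19. They were taken by name from 19974 protein-coding genes, and all lie on chromosome 19 of GRCh38. Peaks in the gene body and within 5 kb of either end were counted for each member. Of the 8 members, 5 had coverage in at least 2 libraries and were tested among 16284 such genes. CEACAM4, CEACAM7 and CEACAM8 were listed with no peak in any of the 12 libraries.

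The mark was mapped by ChIP-seq in 12 libraries, 2 in each of 6 groups, of cell lines from human pancreatic ductal adenocarcinoma. CFPAC1 and MiaPaCa2 bulk cultures were each profiled after 2 h with 1000 U/ml of human interferon beta (IFN-β) and untreated. The IRF1KO clones are CFPAC1 clones, isolated by dilution, that received wild-type Cas9 and a guide RNA to IRF1 on the lentiCRIPSv2 plasmid, and the WT clones are CFPAC1 clones that received that plasmid, with no guide named in the labels. No clone was treated with IFN-β. CFPAC1 cells grew in IMDM and MiaPaCa2 cells in DMEM, so line and medium cannot be told apart. The labels do not say whether the bulk libraries came from separate cultures, so p-values measure only the spread between these libraries. The title of the series asks what IRF1, which switches on genes downstream of interferons, controls in low-grade pancreatic cancer cells.

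CEACAM proteins are surface glycoproteins of the immunoglobulin superfamily that bind one another and bind bacterial adhesins. CEACAM5, the carcinoembryonic antigen measured in serum of patients with carcinomas, CEACAM6 and CEACAM7 are held in the membrane of epithelial cells by a lipid anchor, and CEACAM5 and CEACAM6 are often high in pancreatic and colorectal carcinoma. CEACAM1 spans the membrane, carries inhibitory motifs in its long cytoplasmic tail and occurs on epithelial cells, endothelium and lymphocytes. CEACAM3, CEACAM4 and CEACAM8 are known from granulocytes, where CEACAM3 takes up bacteria. CEACAM19 is a less studied member.

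The promoters of the 3 epithelial members on which the results turn are shown because H3K27ac covered those of CEACAM1 and CEACAM6 but not that of CEACAM5. Each run is from RefSeq (GRCh38.p14), 5′ to 3′ in the sense of the gene, from 250 bases before the gene start to 50 after it. Capitals mark GAAANNGAA, the core of the interferon-stimulated response element. CEACAM1 lies at chr19:42528432-42528731 on the minus strand, CEACAM5 at chr19:41708376-41708675 on the plus strand and CEACAM6 at chr19:41755280-41755579 on the plus strand.
CEACAM1: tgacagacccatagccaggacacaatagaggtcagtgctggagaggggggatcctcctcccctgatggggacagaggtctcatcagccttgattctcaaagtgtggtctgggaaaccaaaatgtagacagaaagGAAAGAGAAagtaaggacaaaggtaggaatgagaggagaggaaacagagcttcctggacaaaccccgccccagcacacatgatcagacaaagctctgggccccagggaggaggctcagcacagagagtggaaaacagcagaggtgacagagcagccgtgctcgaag
CEACAM5: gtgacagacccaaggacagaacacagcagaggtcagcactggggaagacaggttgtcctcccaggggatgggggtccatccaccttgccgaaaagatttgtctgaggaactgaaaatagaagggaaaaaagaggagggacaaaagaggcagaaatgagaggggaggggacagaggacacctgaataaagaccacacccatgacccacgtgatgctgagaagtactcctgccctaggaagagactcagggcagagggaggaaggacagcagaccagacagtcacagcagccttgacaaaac
CEACAM6: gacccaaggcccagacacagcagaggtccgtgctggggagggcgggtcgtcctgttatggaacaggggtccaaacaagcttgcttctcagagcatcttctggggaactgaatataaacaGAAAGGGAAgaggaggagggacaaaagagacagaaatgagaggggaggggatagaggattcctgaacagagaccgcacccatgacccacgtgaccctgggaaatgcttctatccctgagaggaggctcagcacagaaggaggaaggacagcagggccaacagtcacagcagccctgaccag

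Promoter entries were found for 7 of the 8 members, not for CEACAM19. GAAANNGAA, searched on both strands, was present once in CEACAM1, starting at -116, and once in CEACAM6, starting at -131, with positions counted from 0 at the first base of the gene. It was in neither CEACAM5, CEACAM3, CEACAM4, CEACAM7 nor CEACAM8, and in 7.10% of the 22140 RefSeq promoters searched. TTCNNNGAA, the gamma-activated site, was in none of the 7 and in 6.79% of all promoters. The GC box GGGCGG was in CEACAM1, CEACAM6 and CEACAM8 and in 56.3% of all promoters, and the E-box CACGTG was in CEACAM5 and CEACAM6 and in 8.34% of all promoters. No 2 of these motif sites overlapped. The 7 promoters were alike in sequence, with 66.7 to 84.7% identical bases in pairwise alignments, and CEACAM5 and CEACAM7 formed the closest pair.

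The measure below is the covered length, the number of bp of a window that lie under peaks. It says how far peaks extend, not how high the signal is, and less mark per cell cannot be told apart from fewer cells with the mark. Groups were compared with limma, and a gene is called here where its p, adjusted over all genes tested, was under 0.05. The lists held 59896 to 109861 peaks per library and the read depth is unknown. IRF1KO clone 2 had the longest list, and the list of IRF1KO clone 1 started at a -log10 q of 1.37, against 1.30 to 1.32 in the other 11, so the clone results are also given without each of these libraries. As a check of the treatment, MX1, an antiviral interferon-stimulated gene, had 11238 and 9488 bp in IFN-β-treated and 2788 and 3040 bp in untreated CFPAC1 cells, and 12204 and 11453 bp in treated and 1246 and 1412 bp in untreated MiaPaCa2 cells. ISG15 was called higher in CFPAC1 (limma adjusted p = 0.0494) and in MiaPaCa2 (limma adjusted p = 0.00719). IFIT1 was called higher in CFPAC1 (limma adjusted p = 0.0106) but not in MiaPaCa2 (limma adjusted p = 0.756). Of 17 interferon-stimulated genes, 7 were called higher in CFPAC1 and 11 in MiaPaCa2, and none was called lower. All 12 epithelial markers had a peak in every CFPAC1 library. In MiaPaCa2, 8 or 9 of the 12 did, KRT8, KRT18 and KRT19 among them, while CDH1, EPCAM and ESRP1 were at 0 bp in all 4 libraries.

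**Figure D1:**
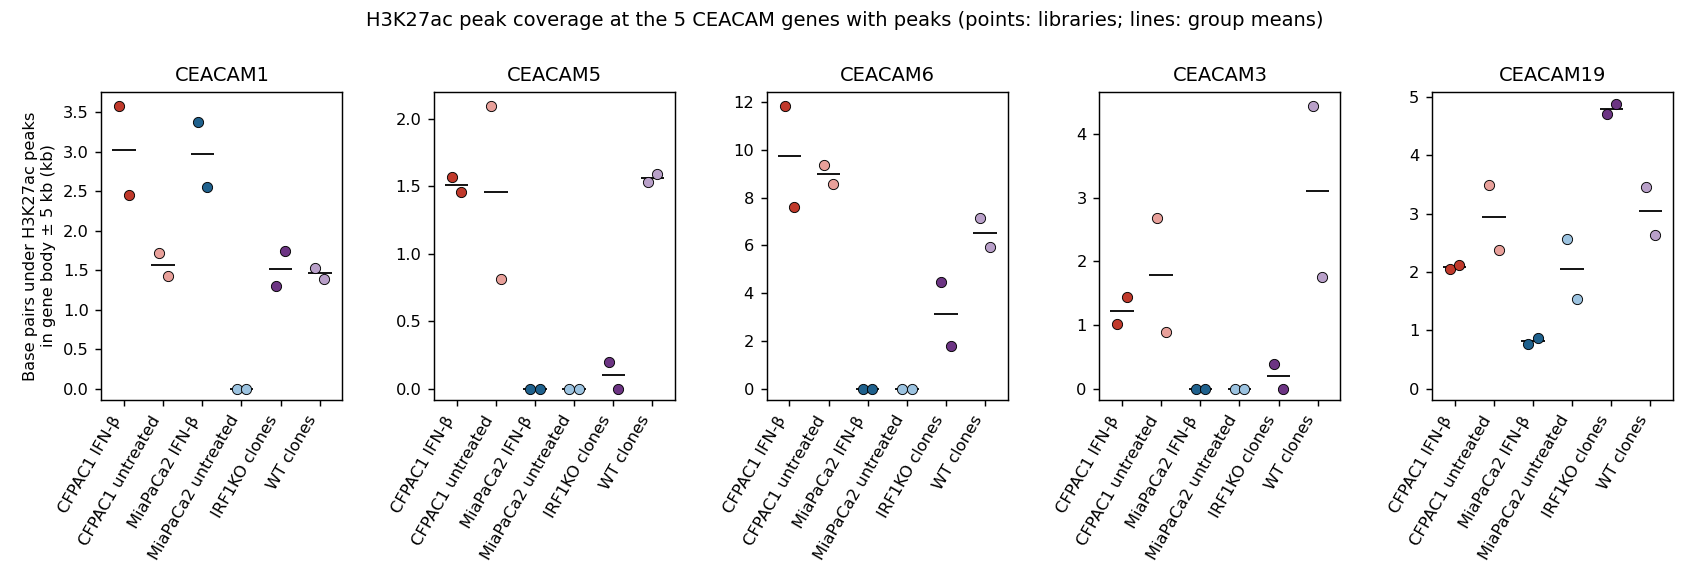
Covered length in kb (y axis, linear, own scale per panel) of the 5 CEACAM genes with peaks, by group (x axis). Points are single libraries and lines are means of 2; CEACAM1 is at 0 in the untreated MiaPaCa2 libraries and covered in all others, while CEACAM5, CEACAM6 and CEACAM3 are at 0 in all 4 MiaPaCa2 libraries.

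Peaks of any library merged into 40 loci that lay at least partly in the 8 windows. Of these, 2 held a peak in all 12 libraries, both at CEACAM19, and 13 held a peak in a single library. Loci were counted whole, and 1 of those 2 (chr19:44688861-44693579) reaches past the CEACAM19 window, which ends at 44689355. In both treated MiaPaCa2 libraries its peaks lay wholly beyond that end. Relative to window length, CEACAM6 was the most densely covered member in bulk CFPAC1. Peaks took 44.4 and 28.5% of its window in treated and 35.1 and 32.2% in untreated libraries, while no other member passed 12.3% in those 4 libraries. Below it in untreated CFPAC1, CEACAM19 covered 12.3 and 8.37% of its window and CEACAM1 5.49 and 4.57%, while CEACAM3, at 10.8 and 3.56%, and CEACAM5, at 6.58 and 2.56%, spread too widely to be placed. In MiaPaCa2 CEACAM19 was covered in all 4 libraries, at 2.70 to 9.02% of its window, and CEACAM1 in the treated libraries, at 10.8 and 8.20%, and no other member was covered.

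CEACAM1 was the only member called with IFN-β, and it was called in MiaPaCa2. There its window held 3380 and 2555 bp of peaks after IFN-β and 0 bp in both untreated libraries. The treated libraries had 3 peaks each, and the untreated ones none. CEACAM1 was called higher (limma adjusted p = 0.00126), 1 of the 2 members with any coverage in MiaPaCa2, where 0.645% of all genes were called and 0.583% were called higher. CEACAM3, CEACAM5 and CEACAM6 entered the test through CFPAC1 only and, at 0 bp in all 4 MiaPaCa2 libraries, could not be called here. The limma adjusted p lay between 1.31e-04 and 0.0379 over 18 alternatives, and the difference stayed positive with each single library left out. No fold is given against 0 bp.

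In CFPAC1 the CEACAM1 window held 3583 and 2455 bp after IFN-β, against 1711 and 1426 bp in untreated cells. The treated libraries averaged 3019 ± 798 bp and the untreated ones 1569 ± 202 bp (mean ± SD, n = 2 each). The difference of 0.91 ± 0.23 on the scale of log2(covered bp + 500) (SE) missed the threshold, with a limma p of 0.00317 and an adjusted p of 0.112, and 0.0708 to 0.675 over the alternatives. None of the 5 members was called in CFPAC1, where 1.01% of all genes were. The response of CEACAM1 in MiaPaCa2 exceeded that in CFPAC1 by 1.97 ± 0.33 (SE) on the same scale, with a limma adjusted p of 0.115. This value depends on the 500 bp added to the 0 bp of untreated MiaPaCa2, and it passed at 100 bp added, with an adjusted p of 0.0128. The comparison of responses called 0 of 5 members and 0.0614% of all genes.

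Peaks at CEACAM1 fell into 3 loci. The start locus (chr19:42527634-42529488) spanned the gene start, from -1007 to 847 bp, and held a peak in all 8 CFPAC1 libraries and both treated MiaPaCa2 libraries. In CFPAC1 it was already marked without IFN-β: the strongest peak there had a fold enrichment, the authors' value for each peak, of 36.4 and 22.8 after IFN-β, above 99.4 and 98.9% of the peaks of its own library. In untreated CFPAC1 the peak had a fold enrichment of 20.4 and 18.8, above 95.9 and 97.4% of the peaks of its own library. Lists were called separately, so these ranks show the standing within each list only.

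The gene-body locus (chr19:42511114-42513358), 15123 to 17367 bp past the gene start, followed the treatment in both lines. It held 1554 and 815 bp of peaks in treated and 0 bp in untreated CFPAC1 libraries, and 2245 and 1493 bp in treated and 0 bp in untreated MiaPaCa2 libraries. None of the 4 clones had a peak there. Its strongest peak stood above 43.2 and 31.0% of the peaks of treated CFPAC1 libraries and 73.5 and 17.7% of those of treated MiaPaCa2 libraries. Only in treated MiaPaCa2 library 1 did it rank in the upper part of its list. Between these loci a small locus (chr19:42526381-42526784) held a peak in treated CFPAC1 library 1 and in IRF1KO clone 2 only.

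In treated MiaPaCa2 the peaks at the start flanked the first bases of the gene. Library 1 had peaks from -897 to -92 and from 36 to 364 bp, and library 2 from -764 to -164 and from 11 to 471 bp. The GAAANNGAA site shown above, at -116, thus lay under a peak in library 1 and between peaks in library 2. Of the 300 promoter bases 173 and 126 were under peaks in treated MiaPaCa2, 0 in untreated MiaPaCa2 and all 300 in each CFPAC1 library. Beyond the other end of CEACAM1, the next 50 kb held 4014 to 5374 bp of peaks in bulk CFPAC1 and 0 bp in all 4 MiaPaCa2 libraries, treated or not.

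**Figure D2:**
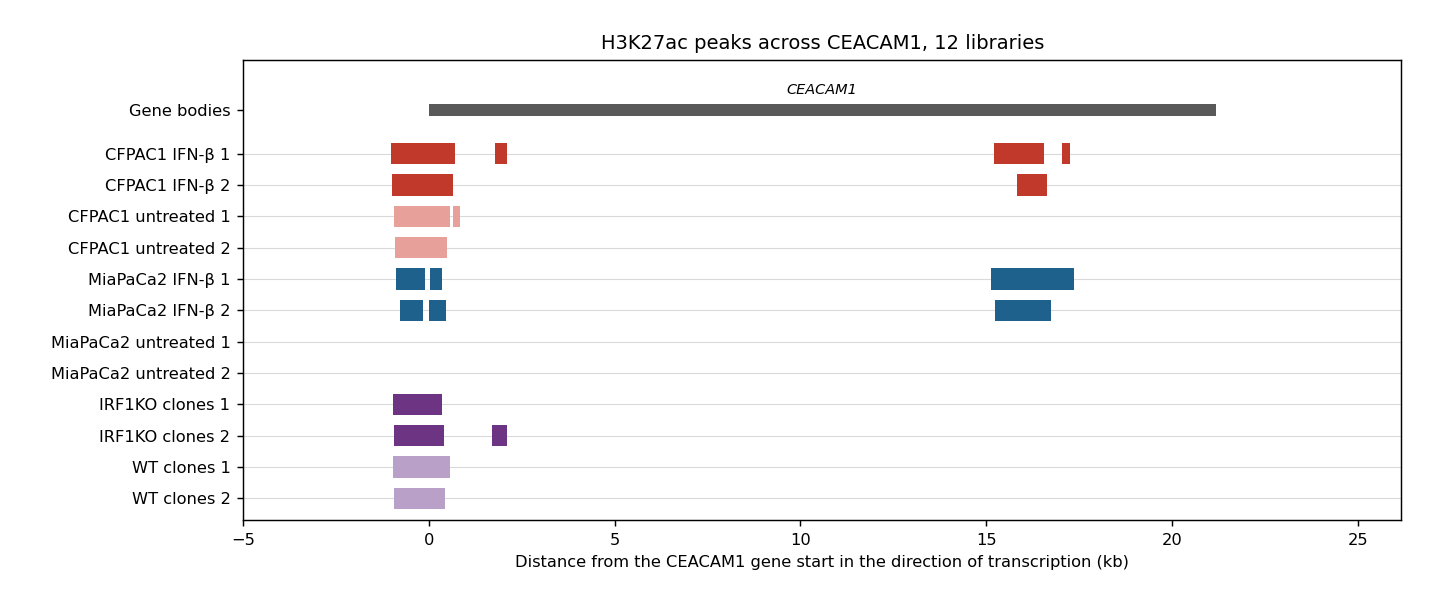
Peaks of each of the 12 libraries (rows, 2 per group) along CEACAM1, by distance from the gene start in kb (x axis); the grey bar is the gene body and coloured blocks are peaks. The start is marked in all but the untreated MiaPaCa2 libraries, and the locus about 15123 to 17367 bp into the gene is marked only in the 4 IFN-β-treated libraries.

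The other members gave no call with IFN-β. In CFPAC1, CEACAM6 held 11853 and 7600 bp after IFN-β and 9359 and 8585 bp untreated, and the groups overlapped (0.24 ± 0.34, adjusted p = 0.904, limma). CEACAM5 held 1568 and 1456 bp treated and 2098 and 816 bp untreated, and CEACAM3 held 1009 and 1442 bp treated and 2685 and 888 bp untreated. The treated values of both lay within the untreated range (limma adjusted p = 0.882 for CEACAM5 and 0.952 for CEACAM3). All 3 were at 0 bp in both treated and untreated MiaPaCa2, so that H3K27ac at these genes was not detected with or without IFN-β.

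CEACAM19 had less coverage after IFN-β in both lines without a call. Its window held 768 and 863 bp in treated and 2571 and 1538 bp in untreated MiaPaCa2 libraries (-0.83 ± 0.21 SE, limma adjusted p = 0.199). In CFPAC1 it held 2048 and 2127 bp treated and 3501 and 2385 bp untreated (-0.23 ± 0.21 SE, limma adjusted p = 0.815). The window takes in part of PVR, the gene of the poliovirus receptor, whose body overlaps that of CEACAM19. The peaks crowd at the opposite end, and 1 peak, in IRF1KO clone 2, lay over PVR.

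**Figure D3:**
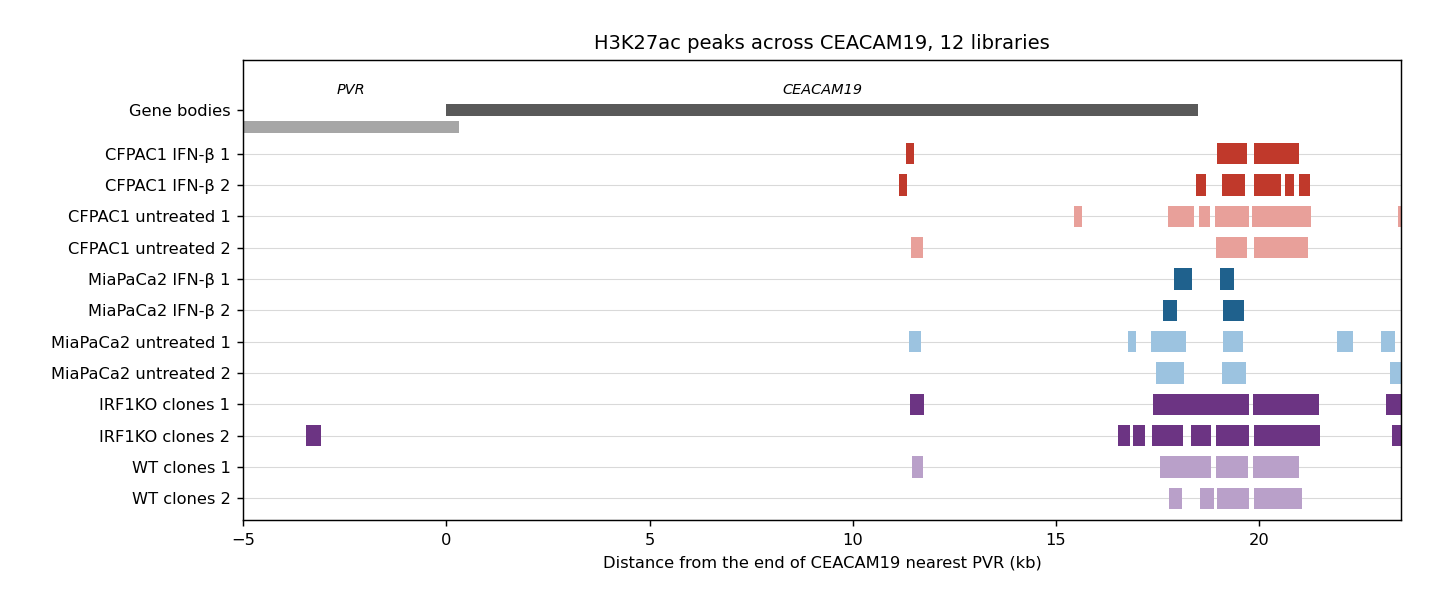
Peaks of each of the 12 libraries (rows) along CEACAM19, by distance in kb from its end nearest PVR (x axis); dark grey is the body of CEACAM19 and light grey that of PVR. Peaks of all 12 libraries gather at the end away from PVR, and the treated MiaPaCa2 libraries have the shortest coverage, 768 and 863 bp.

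By loci, the members gained 1 and lost 1 of 34 with IFN-β in CFPAC1, and gained 2 and lost 0 of 7 in MiaPaCa2. A locus is gained when both treated libraries and neither untreated one held a peak, and lost in the opposite case. Over the genome 3.15% of loci were gained and 6.04% lost in CFPAC1, and 2.16% gained and 3.31% lost in MiaPaCa2. The gained loci were all at CEACAM1: the gene-body locus in both lines and the start locus in MiaPaCa2. The lost one was a 321 bp locus past the end of CEACAM5. Its peaks stood above only 3.80 and 25.8% of the peaks of the untreated CFPAC1 libraries. CEACAM5 lost 0 loci with peaks of -log10 q of at least 5 and with the same number of peaks per library. Counts of loci were not tested, since with 2 libraries against 2 the smallest share an exact two-sided permutation test can give is 1 in 3.

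In the clones, IRF1 itself was examined first. Its window held 8271 and 14027 bp in IRF1KO clones and 5485 and 6341 bp in WT clones (0.69 ± 0.27 SE, limma adjusted p = 0.279). H3K27ac at the gene does not check whether the protein is lost, and no other check of the knockout was made here.

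CEACAM5 and CEACAM3 had less H3K27ac in the IRF1KO clones. CEACAM5 held 200 and 0 bp in IRF1KO clones and 1530 and 1593 bp in WT clones. CEACAM3 held 393 and 0 bp in IRF1KO clones and 4447 and 1751 bp in WT clones. In both genes both IRF1KO clones lay below both WT clones, an order whose share over all genes was not counted. Both fell, with a difference in log2(covered bp + 500) of -1.93 ± 0.33 for CEACAM5 (SE, limma adjusted p = 0.0350) and -2.45 ± 0.46 for CEACAM3 (SE, limma adjusted p = 0.0446), where 1.24% of all genes were called and 0.596% were called lower. These were 2 of the 5 members tested. Since IRF1KO clone 2 is at 0 bp in both genes, the size depends on the 500 bp added: the difference was -3.47 with 100 bp and -1.32 with 1000 bp for CEACAM5, and -3.91 and -1.81 for CEACAM3. CEACAM5 lost its call in 6 of 18 alternatives (limma adjusted p = 0.0105 to 0.414) and CEACAM3 in 12 of 19 (limma adjusted p = 0.0197 to 0.414), with 100 bp or 1000 bp added (limma adjusted p = 0.0542 and 0.0509) among those of CEACAM3.

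CEACAM6 pointed the same way without a call. Its window held 4480 and 1767 bp in IRF1KO clones and 7143 and 5920 bp in WT clones (-1.19 ± 0.34 SE, limma adjusted p = 0.146). CEACAM1 did not separate the clones, with 1300 and 1740 bp in IRF1KO clones and 1528 and 1390 bp in WT clones. Its difference was -0.09 ± 0.23 (SE, limma adjusted p = 0.885) and 0.04 without centring of the libraries. CEACAM19 went the other way, with 4719 and 4892 bp in IRF1KO clones and 3465 and 2642 bp in WT clones (0.46 ± 0.21 SE, limma adjusted p = 0.361).

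Both calls were lost when any of 3 clones was left out. Without IRF1KO clone 2 neither passed, with limma adjusted p = 0.142 for CEACAM5 and 0.195 for CEACAM3. The same held without WT clone 1 (0.0813 and 0.140) and without WT clone 2 (0.144 and 0.0762). Without IRF1KO clone 1 CEACAM5, CEACAM3 and CEACAM6 were all called lower, with adjusted p = 0.0172, 0.0197 and 0.00735. The main model took its spread from all 6 groups, and the 4 MiaPaCa2 libraries, at 0 bp for both genes, added almost none. Fitted to the 4 clone libraries alone, with no bulk library to share the spread, neither was called (limma adjusted p = 0.414 for both). In that fit 0 of 15516 genes were called. The difference stayed negative in every one of these fits.

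The losses lay at particular loci. CEACAM5 had 2 loci past its end (chr19:41733661-41734247 and chr19:41734539-41735728) with a peak in all 4 bulk CFPAC1 libraries, both WT clones and no IRF1KO clone. At the second the WT clones held 896 and 934 bp, and the promoter of CEACAM5 printed above held no peak in any library. CEACAM3 lost 3 loci, 2 before its start (chr19:41791467-41791970 and chr19:41792872-41793956) and 1 in its body (chr19:41798838-41800005). CEACAM6 lost 1 locus before its start (chr19:41752580-41754018).

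CEACAM6 kept its main loci in the IRF1KO clones at a shorter length. Its start locus (chr19:41754549-41756541) held 933 and 347 bp in IRF1KO clones and 1332 and 1227 bp in WT clones. The locus past its end (chr19:41774726-41777492) held 2271 and 463 bp in IRF1KO clones and 2711 and 2767 bp in WT clones. Of the 300 promoter bases of CEACAM6, 211 and 257 were under peaks in IRF1KO clones and all 300 in WT clones. In all, 6 of 26 loci of the members were lost and 0 gained in IRF1KO clones, against 2.35% lost and 3.42% gained over the genome.

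The whole stretch from CEACAM7 to CEACAM3, 138252 bp, held 6387 and 2322 bp of peaks in IRF1KO clones and 18060 and 11192 bp in WT clones. Between CEACAM5 and CEACAM6 alone, 242 and 207 bp remained in IRF1KO clones, against 4125 and 2637 bp in WT clones. IRF1KO clone 2 had the lower value in both stretches. Its list was the longest of all 12, with 109861 peaks, and its median peak length was 478 bp, against 587 bp in IRF1KO clone 1. The epithelial markers also had less summed coverage in the IRF1KO clones. The summed coverage of the 12 was 129479 and 98210 bp in IRF1KO clones and 147467 and 147756 bp in WT clones, with a median log2 difference of -0.43 against -0.05 over all genes, and 0 of 12 were called. The 8 mesenchymal markers summed to 35724 and 42473 bp in IRF1KO clones and 36117 and 29056 bp in WT clones. Their median log2 difference was 0.37, against -0.05 over all genes. Of the 8, 0 were called higher and 1, ZEB1, was called lower. Whether these markers have a part in the CEACAM5 and CEACAM3 results was not tested.

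**Figure D4:**
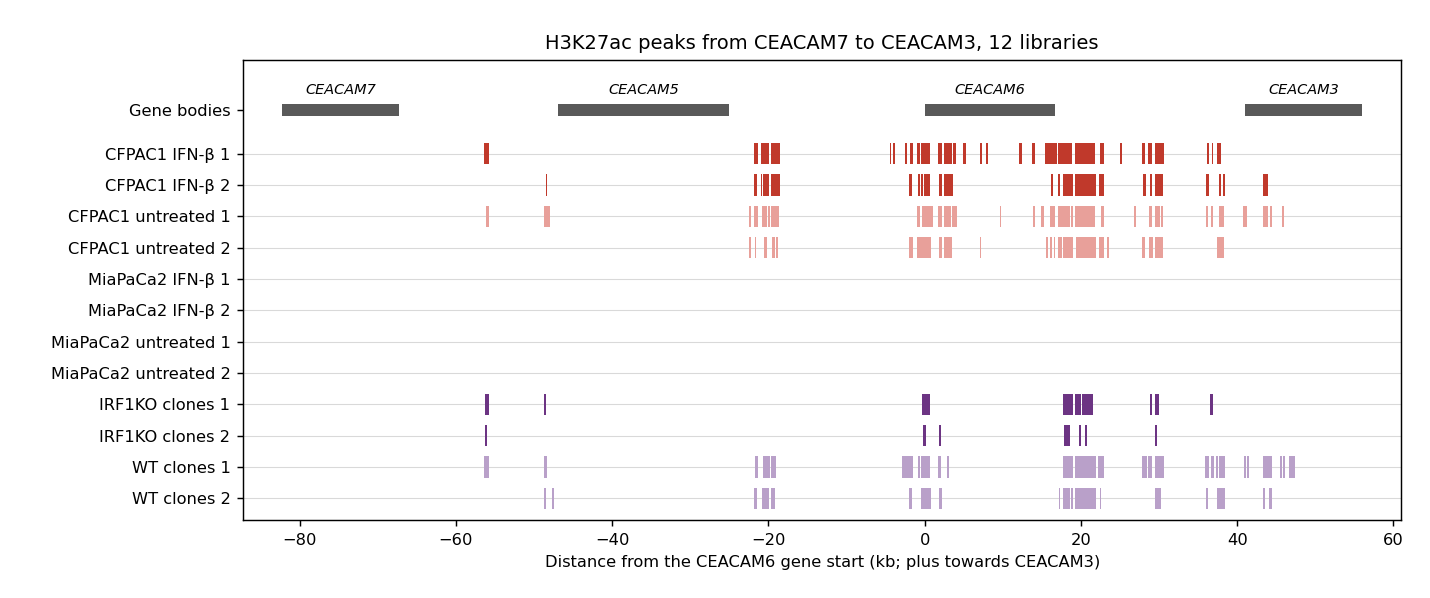
Peaks of each of the 12 libraries (rows) from CEACAM7 to CEACAM3, by distance in kb from the start of CEACAM6 (x axis); grey bars are gene bodies. The 4 MiaPaCa2 rows are empty, CEACAM7 has no peak in any row, and the IRF1KO clones lack the 2 loci past the end of CEACAM5 that all bulk CFPAC1 libraries and both WT clones have.

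Between the untreated lines, 4 of the 5 tested members were called lower in MiaPaCa2. CEACAM6 held 0 bp in both MiaPaCa2 libraries and 9359 and 8585 bp in CFPAC1 (limma adjusted p = 1.10e-05). CEACAM1 held 0 bp in MiaPaCa2 and 1711 and 1426 bp in CFPAC1 (limma adjusted p = 1.60e-04). CEACAM5 held 0 bp in MiaPaCa2 and 2098 and 816 bp in CFPAC1, and CEACAM3 held 0 bp in MiaPaCa2 and 2685 and 888 bp in CFPAC1 (limma adjusted p = 0.00210 and 0.00743). CEACAM3, CEACAM5 and CEACAM6 entered the test through CFPAC1 libraries only, so lower in MiaPaCa2 was the only call open to them. The count stands against 58.6% of all genes called in this comparison and 22.5% called lower, and nothing particular to the family is read from it.

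The CEACAM3 call was lost without untreated CFPAC1 library 1 (limma adjusted p = 0.0616) and, with peaks counted in the gene body only, at a difference of -0.63 (limma adjusted p = 0.408). CEACAM19 was the only member marked in both untreated lines, with 2571 and 1538 bp in MiaPaCa2 and 3501 and 2385 bp in CFPAC1, and the groups overlapped (-0.20 ± 0.21 SE, limma adjusted p = 0.427). It was called lower in MiaPaCa2 with peaks of -log10 q of at least 5 (-0.84, limma adjusted p = 0.00518) and where each list was held to an equal number of peaks (-0.59, limma adjusted p = 0.0288). Of 29 loci of the members, 12 were lost and 0 gained in MiaPaCa2, 6 of the lost ones at CEACAM6, against 20.6% lost and 10.5% gained over the genome. The stretch from CEACAM7 to CEACAM3 held 0 bp in both untreated MiaPaCa2 libraries and 18050 and 13914 bp in CFPAC1. Among 8 granulocyte markers, MPO, FCGR3B, S100A8 and S100A12 were at 0 bp in all 12 libraries, as were CEACAM4 and CEACAM8. CSF3R, the receptor of granulocyte colony-stimulating factor, held 3164 and 2284 bp in untreated MiaPaCa2 and 4672 and 3944 bp in untreated CFPAC1. The 8 markers summed to 19580 and 14279 bp in untreated MiaPaCa2 and 5603 and 4275 bp in untreated CFPAC1, and the higher sum came from ELANE, AZU1 and PRTN3, which lie side by side and share windows.

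No member was called between WT clones and untreated bulk CFPAC1. CEACAM6 held 7143 and 5920 bp in WT clones, below the 9359 and 8585 bp of untreated CFPAC1 (-0.40 ± 0.34 SE, limma adjusted p = 0.996). CEACAM3 held 4447 and 1751 bp in WT clones and 2685 and 888 bp in untreated CFPAC1 (0.70 ± 0.46 SE, limma adjusted p = 0.990). Of all genes 0.0184% were called, 3 by limma, while 971 had an unadjusted p under 0.05. Of 30 loci of the members 2 were lost and 0 gained in WT clones, against 4.32% lost and 1.47% gained over the genome. The comparison of IRF1KO with WT clones and that of the untreated lines contrast no common library. All comparisons nevertheless drew their spread from 1 model over the same 12 libraries. The comparisons of untreated CFPAC1 with its treated cells, with MiaPaCa2 and with the WT clones share the same 2 libraries. The untreated MiaPaCa2 libraries, at 0 bp for CEACAM1, serve both the IFN-β comparison in MiaPaCa2 and that of the lines. The WT clones likewise serve the comparisons with IRF1KO clones and with bulk CFPAC1. Calls that share libraries or the spread of that model are not independent.

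**Figure D5:**
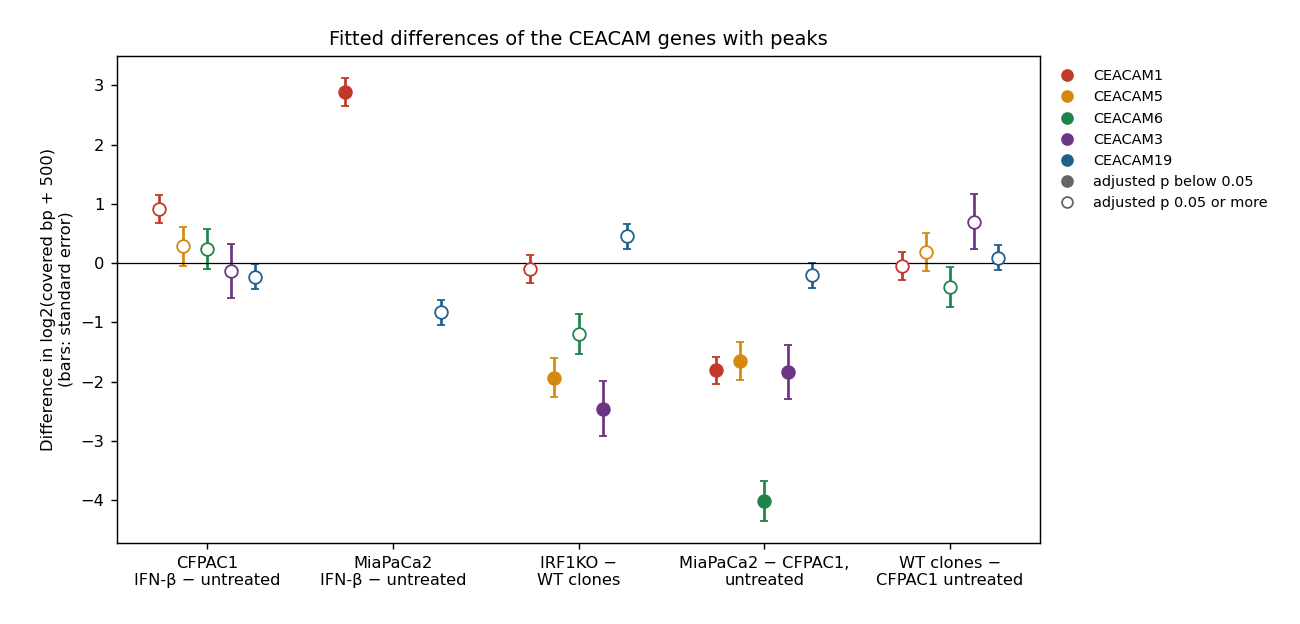
Fitted difference of log2(covered bp + 500) (y axis, bars are standard errors) for the CEACAM genes with coverage in each of 5 comparisons (x axis, first-named group minus second). Filled points have a limma adjusted p under 0.05; members with 0 bp in both groups are left out, and where 1 group is at 0 bp the height depends on the 500 bp added.

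Among other genes of the family, coverage was sparse. Of 14 listed genes (CEACAM16, CEACAM18, CEACAM20, CEACAM21 and 10 pregnancy-specific glycoproteins), 3 were covered in at least 2 libraries: CEACAM16, CEACAM20 and PSG4. CEACAM16, known from the inner ear and the next protein-coding gene after CEACAM19, held 7452 and 2178 bp in untreated MiaPaCa2 and 1823 and 1608 bp in untreated CFPAC1. It was called higher (1.30 ± 0.49 SE, limma adjusted p = 0.0437), as were 5872 of the 16284 genes in this comparison. Most of its MiaPaCa2 coverage came from library 1. CEACAM16 was called in no other comparison. CEACAM20 held at most 35 bp in any library and PSG4 at most 354 bp.

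Likeness to other genes was measured as the root mean square difference over the 12 libraries, each gene taken relative to its own mean of log2(covered bp + 500). The genes most like CEACAM1 were IFIH1 (0.19), GCA (0.26) and GBP7 (0.30), where CEACAM1 itself had a root mean square of 0.95. IFIH1 held 232 and 568 bp in untreated MiaPaCa2, the same values as GCA, whose window it overlaps. FXYD3 (0.27), STX19 (0.31) and SGSM3 (0.32) were most like CEACAM5, and DOCK5 (0.27), SLC38A11 (0.28) and FAM83A (0.28) most like CEACAM6. CEACAM5 (0.39), GJB1 (0.40) and PLA2G4B (0.43) were most like CEACAM3. MRPL14 (0.20), SLC35H1 (0.21) and KIAA0930 (0.21) were most like CEACAM19. These are descriptions over the same 12 libraries, picked as the smallest values among the 16284 genes.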

How the data were processed

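H3K27ac ChIP-seq peak lists of 12 libraries, 6 groups of 2 by their labels, were used. Reads were trimmed, aligned and peaks called with Trimmomatic 0.38, Bowtie2 2.2.6, SAMtools and MACS2 2.1.0.20150731 on GRCh38, per the submitters' processing notes, which do not say in what order or with what settings. The authors deposited 1 narrowPeak list per library, with a fold enrichment (a ratio), a -log10 p-value and a -log10 q-value per peak. The deposited fold was used to rank peaks within a list, and -log10 p or q to filter in alternatives. The control library and read depth are not given in the sources used here, and libraries are not assigned to 1 of the 2 named instruments, so no batch was tested and no interval or floor from counts could be made.

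The base pairs under peaks in each gene body and 5 kb either side were computed for 19974 RefSeq protein-coding genes on chromosomes 1 to 22 and X. Genes covered in at least 2 libraries were fitted with limma 3.58.1 (R 4.3.3) as log2(covered bp + 500), centred on each library's mean: 1 model over 6 groups, a trended prior, 6 residual degrees of freedom, and Benjamini-Hochberg adjustment over all 16284 genes, with calls at an adjusted p under 0.05. A group at 0 bp adds almost no spread. A fold change on this scale understates that of sparsely covered genes. Peaks of all 12 libraries were merged into loci with Python 3.11.15, pandas 2.3.3 and numpy 2.4.6, promoters were aligned with Biopython 1.88 and figures drawn with matplotlib 3.10.9. Replicate numbers were not taken to pair libraries. The fit was tested on simulated data. The 8 members, gene lists, motifs and rules for naming genes were chosen with earlier results of these data known. Named were all members, other family genes covered in at least 2 libraries, genes sharing a window and the 3 most alike per tested member. MX1, IFIT1 and ISG15 could be named as checks of the treatment and IRF1 as the targeted gene. Alternatives varied the pseudocount, filter, centring, peak filter, window, prior, libraries and replicate block.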

Additional observations from a re-analysis of the deposited data

How the results depend on the processing

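The members called were recounted under 15 kinds of alternative. In CFPAC1 with IFN-β and in WT clones against untreated CFPAC1 the count was 0 in each of them, and in MiaPaCa2 with IFN-β it was 1, CEACAM1, in each. For IRF1KO against WT clones, 2 in the main model, it was 1, CEACAM5, with 100 bp or 1000 bp added, with no filter, with no centring and with the same number of peaks per library, and 1, CEACAM3, with 20 kb flanks. It was 0 with peaks of -log10 q of at least 5, with only the libraries of the comparison and with the gene body only, where CEACAM5, which has no peak in its body, was not among the 4 members tested, and 0 to 3 when a single clone was left out. Between untreated lines it was 2 instead of 4, CEACAM6 and CEACAM1, with the gene body only, again without CEACAM5 in the test. It was 5, with CEACAM19 added, at -log10 q of at least 5 and with the same number of peaks per library, and 3 or 4 with a library left out. For the comparison of responses it was 1 instead of 0 with 100 bp added. The cause of the other shifts was not tested.

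Same-numbered libraries did not deviate together beyond 0.247 (correlations -0.105 to 0.247), so the numbers were not taken as pairs. With the replicate block the counts were 0, 1, 2, 4, 0 and 0, in the order of CFPAC1 with IFN-β, MiaPaCa2 with IFN-β, the clones, the untreated lines, WT clones against bulk and the responses. Crossing the clone numbers, an alternative added after seeing the data, gave 1.

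Of 441 alternative values for 24 results on single members, 400 kept direction and side of the threshold, 20 lost a call, 4 gained one and 17 reversed, none of them past the threshold. As log2 differences, CEACAM1 in IRF1KO against WT clones was 0.0365 without centring, and in WT clones against bulk 0.0258 at -log10 q of at least 5. CEACAM3 with IFN-β in CFPAC1 was 0.0743 with 20 kb flanks. CEACAM19 between untreated lines was 0.79 with the gene body only and 0.39 with 20 kb flanks, and in the comparison of responses it was 0.0034 at -log10 q of at least 5. With a library left out, CEACAM1 ran from -0.22 to 0.0368 in the clones and from -0.17 to 0.0874 in WT clones against bulk. With IFN-β in CFPAC1 the ranges were -0.24 to 0.81 for CEACAM5, -0.0644 to 0.55 for CEACAM6, -0.76 to 0.50 for CEACAM3 and -0.50 to 0.0363 for CEACAM19. They were -0.47 to 0.0641 for CEACAM19 between lines, and in WT clones against bulk -0.33 to 0.71 for CEACAM5 and -0.18 to 0.35 for CEACAM19.

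Without centring, the median of all genes shifted by -0.16 in CFPAC1 with IFN-β, -0.10 in MiaPaCa2 with IFN-β, 0.13 in the clones and -0.24 between lines, and the share of called genes that were higher was 52.8% instead of 77.0%, 89.7% instead of 90.5%, 77.6% instead of 52.0% and 44.9% instead of 61.6%. With quantile normalization it was 71.6% in MiaPaCa2 with IFN-β. Peak length depends on unknown depth, which limits every value here, and 2 libraries a group limit the tests.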
